A study of Mus musculus with 2 samples.

Results

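The milk protein genes are the mouse genes of the caseins and the 2 main whey proteins, Csn1s1, Csn1s2a, Csn1s2b, Csn2, Csn3, Lalba and Wap. They were taken by symbol from the transcript tables, and all 7 were found among 23411 genes, each on a single listed RefSeq transcript. The study sorted B6 mouse thymus for medullary epithelial cells (mTEC) with high or with low surface MHC class II, named MHC-II high and MHC-II low. The labels name no further allele or treatment and give no age. Both groups came from the same pool of 3 mice, and there was 1 library of poly-A RNA per group. No second library shows the spread between animals or sorts, so every interval below is a 95% interval of the read counts alone, and each difference is between these 2 libraries.

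Caseins are the phosphoproteins that carry calcium phosphate in milk. The alpha and beta caseins bind calcium and precipitate with it, and kappa casein keeps their micelles in solution. Lalba makes the galactosyltransferase of the Golgi produce lactose, and Wap is a whey protein of rodents. In the mammary gland, prolactin acts through its receptor, the kinase Jak2 and the transcription factor Stat5 to switch on these genes. In the thymus, mTEC transcribe genes of many peripheral tissues, in part under the regulator Aire, so that developing T cells meet their products.

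As a check of the sort, Aire was at 571 against 21.04 CPM (a gene's reads as a rate of the library's scaled total, not divided by transcript length) and the regulator gene Fezf2 at 466 against 154 CPM in the MHC-II high and low libraries. The 3 genes of all epithelium, Epcam, Krt8 and Krt18, were abundant in both, with summed levels of 3390 and 4367 CPM. Reads on genes came to 138368543 for MHC-II high and 56077471 for MHC-II low cells, so low counts are less precise in the latter.

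Beyond 2-fold, 6 of the 7 casein and whey genes had more RNA in MHC-II high cells and 0 had less, and the interval of Lalba reached below 2-fold. The whole-interval rule, applied with no expression minimum, called 12.4% of the 22947 genes with a read as higher. The median log2 ratio of high over low was 3.16 over the 7 genes and −0.14 over genes with a read. The second median leaves out genes with 0 reads in 1 library and at most 3 in the other. Csn1s2b and Lalba were under a mean of 1 CPM. Another 4 genes, Csn1s1, Csn1s2a, Csn3 and Wap, passed that minimum only through the high library, so counts over the genes that pass it are not used here.

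Csn2, the beta casein gene, was by far the most abundant of them. It had 121084 reads or 792 CPM in the high library and 3041 reads or 59.9 CPM in the low library. The high library was therefore 13.2-fold higher (12.8 to 13.7), and 26.5-fold (25.6 to 27.5) on the totals worked back from the authors' RPKM values (RPKM read totals below). Those totals raise the ratio of every gene by the same factor, a shift that takes Csn2 outside its counting interval. Ranked by reads per kilobase of transcript among all 23411 genes, Csn2 was number 38 with high MHC-II and number 1354 with low MHC-II. Of the 17438 genes with a mean of at least 1 CPM, 14.5% were higher beyond 2-fold, and 60 had a lower limit of the ratio above that of Csn2. By the ratio itself, 128 of them, Csn2 included, were at or above Csn2. Higher genes made up 57.0% of all calls with this scaling, 72.9% with unscaled totals and 93.9% with RPKM read totals.

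The alpha caseins bind calcium through clusters of phosphorylated serines. Csn1s2a, an alpha-S2 casein gene, had 2005 reads or 13.1 CPM in the high library and 31 reads or 0.611 CPM in the low library. Its ratio of 21.5 (15.1 to 31.7) was the highest of the 7, and was 43.0 with RPKM read totals. Csn1s1, the alpha-S1 casein gene, had 979 reads or 6.41 CPM against 30 reads or 0.591 CPM, a ratio of 10.8 (7.54 to 16.2), or 21.7 with RPKM read totals. Csn1s2b, the other alpha-S2 gene of the mouse, had 108 reads or 0.707 CPM against 4 reads or 0.0788 CPM. Its ratio of 8.97 had wide limits of 3.40 and 33.5. Summed over these 3 genes, the level was 20.2 against 1.28 CPM, a ratio of 15.8 (12.4 to 20.5).

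Csn3, the gene of kappa casein, had 872 reads or 5.71 CPM in the high library and 42 reads or 0.827 CPM in the low library. Its ratio was 6.90 (5.06 to 9.64). The reference places the lncRNA gene 1700066N21Rik across Csn3 on the opposite strand. The libraries kept no strand, so reads of such a partner cannot be told apart. On 1700066N21Rik itself 14 reads were listed for MHC-II high cells and 0 for MHC-II low cells.

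Of the whey protein genes, Wap had 483 reads or 3.16 CPM against 24 reads or 0.473 CPM, a ratio of 6.69 (4.44 to 10.5). Lalba, whose product is the regulatory part of lactose synthase, had 53 reads or 0.347 CPM against 7 reads or 0.138 CPM. Its ratio of 2.52 had limits of 1.14 and 6.56, so a difference beyond 2-fold was not detected. With the RPKM read totals the ratio of Lalba was 5.04 (2.28 to 13.1), which is beyond 2-fold. Summed over both, the level was 3.51 against 0.611 CPM, a ratio of 5.74 (3.998 to 8.54).

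**Figure D1:**
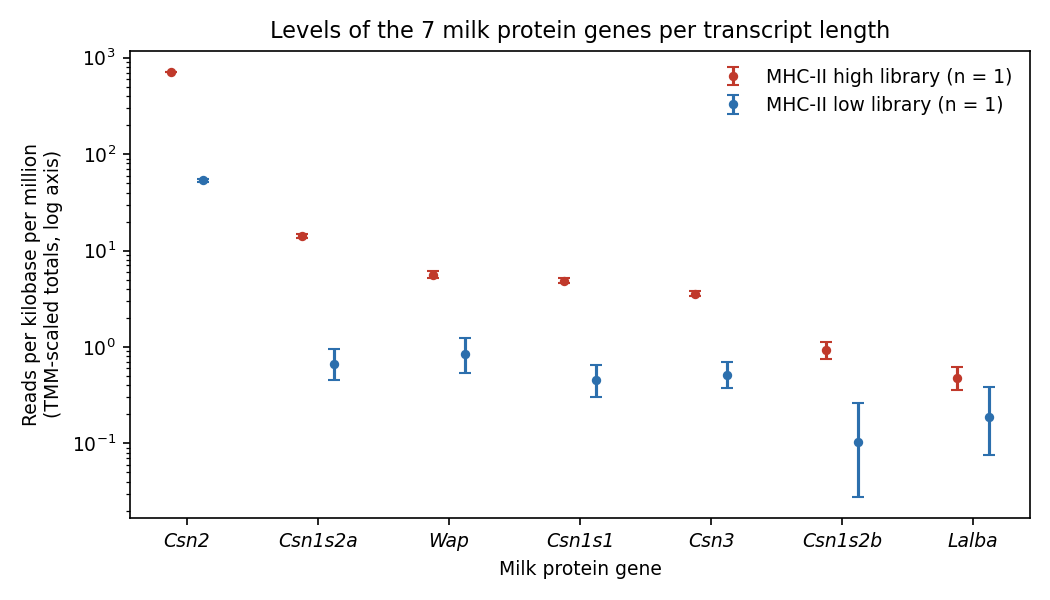
Level per length (RPKM, here CPM per kilobase of transcript, log axis) for each milk protein gene in the MHC-II high (red) and MHC-II low (blue) library, 1 library each, with bars for the 95% Poisson interval of the reads. Csn2 lies far above the other genes in both libraries, at 707 and 53.5, and the intervals of the 2 libraries meet for Lalba alone.

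Per kilobase of transcript, the order in the high library was Csn2, Csn1s2a, Wap, Csn1s1, Csn3, Csn1s2b and Lalba. The interval of each step in that order, which treats reads as independent, left out 1. The step from Csn2 to Csn1s2a was 49.6-fold (47.5 to 51.9), and the smallest step, from Wap to Csn1s1, was 1.15-fold (1.03 to 1.28). In the low library Csn2 was again first, 63.6-fold (42.6 to 99.4) above Wap. Wap, Csn1s2a, Csn3 and Csn1s1 followed there at 0.841, 0.664, 0.518 and 0.451 RPKM. The ratio between neighbours among these 4 had an interval that held 1 each time, so no step between neighbours is resolved there. Genes further apart in that order were not compared. Lalba and Csn1s2b came last, at 0.188 and 0.103 RPKM.

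The make-up of the milk protein reads does not depend on how the library totals are scaled. Csn2 held 96.4% of the 125584 reads of the 7 genes in the high library (exact binomial interval 96.3 to 96.5) and 95.7% of the 3179 in the low library (94.9 to 96.3). Without Csn2, Csn1s2a held 44.6% of the remaining 4500 reads in the high library (43.1 to 46.0) but 22.5% of the remaining 138 in the low one (15.8 to 30.3). The odds of a remaining read being from Csn1s2a were 2.77 times as high in the high library (1.84 to 4.30). The share of Csn3 was smaller in the high library, with 19.4% (18.2 to 20.6) against 30.4% (22.9 to 38.8) and an odds ratio of 0.549 (0.375 to 0.816). Shares add up to the whole, so the larger share of Csn1s2a by itself lowers those of the others. Csn1s1 held 21.8% of these reads in one library and 21.7% in the other, and the interval of its odds ratio ran from 0.658 to 1.56.

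The 7 genes thus did not share 1 ratio. Among the 21 pairs, the ratio of one gene over that of the other had a 95% interval that left out 1 in 9 pairs, and in 5 pairs after Bonferroni widening over the 21. Those 5 pairs set Csn1s2a above Csn3, Lalba and Wap, and Csn2 above Csn3 and Lalba. The ratio of Csn1s2a was 3.12 times that of Csn3 (1.90 to 5.16 unadjusted) and 3.21 times that of Wap (1.79 to 5.71). Csn2 exceeded Csn3 by 1.92 times (1.37 to 2.62). Csn1s2b, with 4 reads in the low library, was not separated from any other member. The interval of Csn1s1 over Csn3 was 0.951 to 2.62 and that of Csn3 over Wap 0.590 to 1.77, so neither pair was separated.

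**Figure D2:**
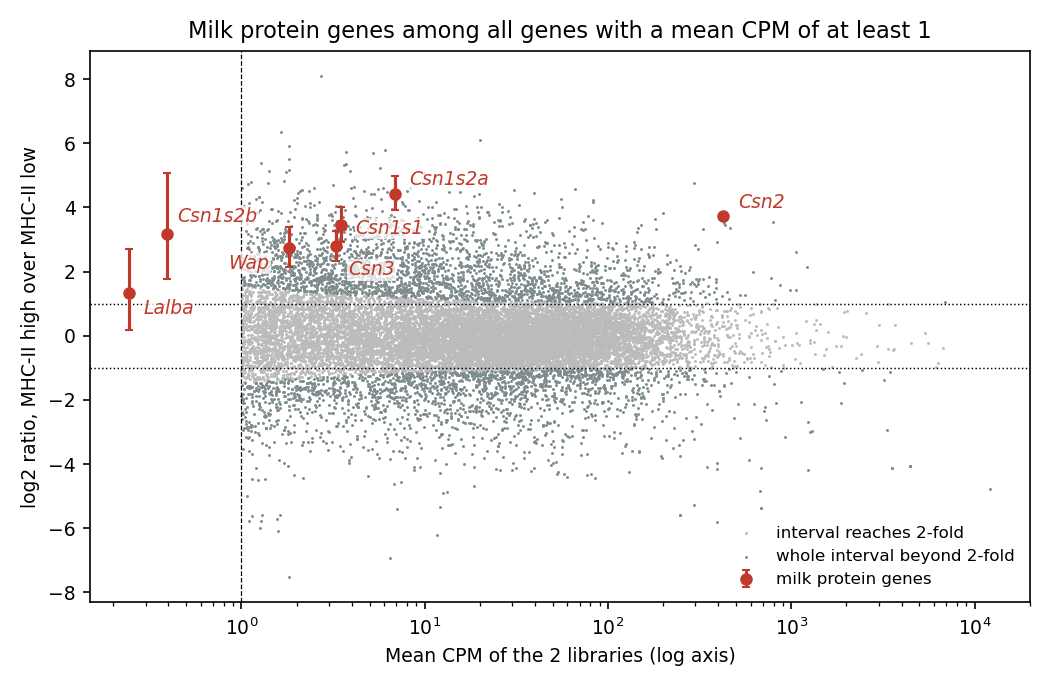
Log2 ratio of MHC-II high over MHC-II low against the mean CPM of the 2 libraries (log axis) for the 17438 genes with a mean of at least 1 CPM (dark grey where the whole interval is beyond 2-fold, otherwise light grey) and for the 7 milk protein genes (red, with 95% counting intervals). Csn2 stands at 3.73 and a mean of 426 CPM, while the other members lie at a mean of 6.86 CPM or less, and Csn1s2b and Lalba lie left of the dashed line at 1 CPM.

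The casein genes lie together on mouse chromosome 5, while Lalba is on chromosome 15 and Wap on chromosome 11. In the gene order of the RefSeq table of assembly GRCm38.p6, the cluster runs Csn1s1, Csn2, Csn1s2a, Csn1s2b and then, after other genes, Csn3. All 5 caseins of this cluster had more RNA with high MHC-II beyond 2-fold, with no minimum (12.4% of genes with a read). The genes between Csn1s2b and Csn3 did not follow them as a block. Prr27, a proline-rich protein gene, had 38 reads or 0.249 CPM against 21 reads or 0.414 CPM, and its ratio of 0.601 had limits of 0.344 and 1.08. Odam, an enamel organ gene related to the caseins, had 136 reads against 11 and was 4.11-fold higher (2.22 to 8.42). The transcribed pseudogene Gm7337 went the other way, with 7 reads against 98, which is 42.1-fold higher in the low library.

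Outside the cluster, on the side of Csn1s1, lie genes of cytosolic sulfotransferases. The nearest with reads was Sult1e1, the estrogen sulfotransferase, with 828 reads in the high library and 1 in the low. Its ratio of 275 had limits of 49.2 and 10877. Next to it, Sult1d1 was 3.07-fold higher (2.67 to 3.55), and Sult1b1 had a ratio of 1.63 (1.33 to 2.01). The microRNA gene Mir3969 had 0 reads in both libraries. On the side of Csn3, the salivary gene Smr3a had 226 against 23 reads, a ratio of 3.26 (2.12 to 5.25). Cabs1, a gene of the sperm tail, had 75 against 30 reads and a ratio of 0.830 (0.537 to 1.31), and Smr2 had 10 against 3 reads.

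Of the 32 genes in the window from 10 genes before Csn1s1 to 10 genes after Csn3, 21 were in both tables. With the caseins included, 10 of them were higher and 1 was lower, read with no expression minimum (12.4% of all genes with a read were higher and 16.7% lower). Apart from the caseins, 1 of 4 within the cluster, 3 of 7 before it and 1 of 5 after it were higher. The 5 higher genes that are not caseins were Odam, Sult1d1, Sult1e1, Smr3a and Ugt2a2. Ugt2a2, named here after its value was seen, had 132 against 12 reads, a ratio of 3.65 (2.02 to 7.25). It may share reads with Ugt2a1 beside it, whose ratio was 3.01 (1.76 to 5.53).

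**Figure D3:**
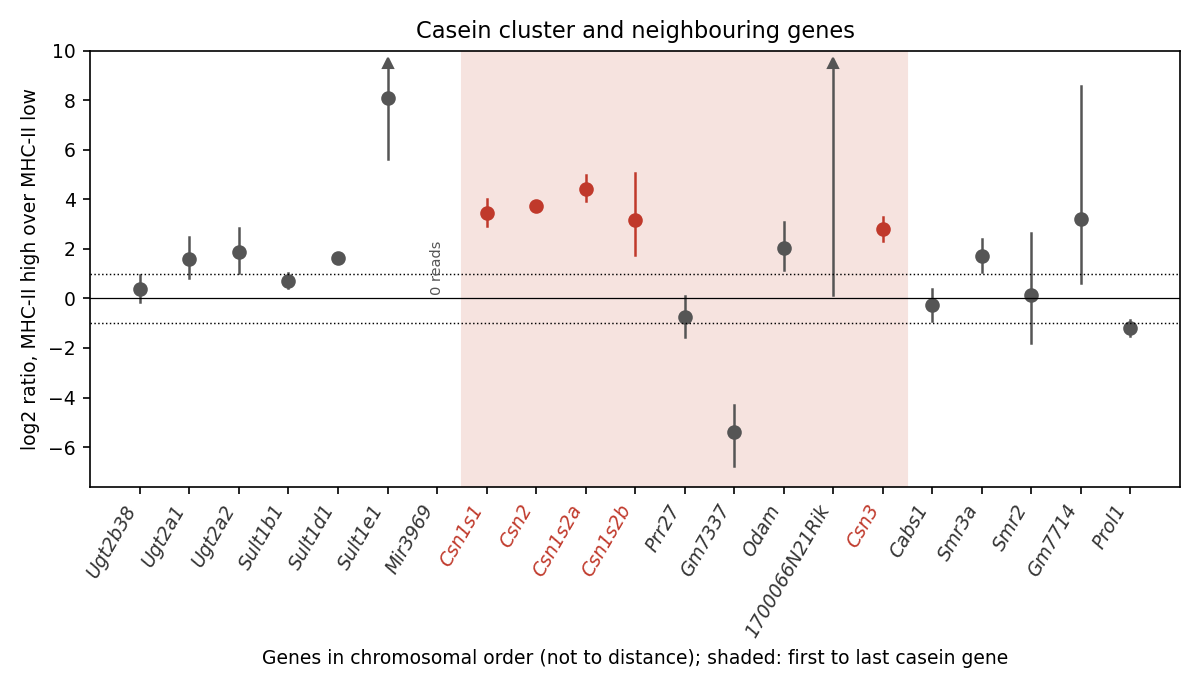
Log2 ratio of MHC-II high over MHC-II low with 95% counting intervals for the listed genes around the casein cluster, in chromosomal order and not to distance; caseins are red, the span from Csn1s1 to Csn3 is shaded, dotted lines mark 2-fold, and a triangle marks an interval that runs off the axis. The caseins lie between 2.79 and 4.43, with genes of both directions between Csn1s2b and Csn3.

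Promoter windows of 5 of the 7 genes, Csn1s1, Csn1s2a, Csn2, Lalba and Wap, were found in the RefSeq table of build GRCm38.p6, which is not the build mm9 of the deposited tables. Each window runs from 250 bases before to 50 bases after the start. They were searched for TTCNNNGAA, the letters to which Stat5 is known to bind. Both strands were covered, since these letters read the same on each. A match was present in 3 of the 5 windows, those of Csn1s1, Csn1s2a and Csn2, and in 8.30% of all 32851 windows. All 3 matches also read TTCTTNGAA, a narrower form chosen after the sequences were seen, which was in 1.37% of all windows. The 29 bases around each match are shown to compare the sites, 5′ to 3′ on the gene's strand, with the match in capitals.
Csn1s1, chr5:87666098-87666126, plus strand: tttgtaacaaTTCTTAGAAtttatgtaaa
Csn2, chr5:87699500-87699528, minus strand: tcacgtagacTTCTTGGAAttgaagggac
Csn1s2a, chr5:87774460-87774488, plus strand: ttatagtgctTTCTTAGAAttacaatgac

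Counted from the RefSeq start, the match lay at −100 to −92 in Csn1s1 and at −93 to −85 in Csn2. In Csn1s2a it lay at 21 to 29 after that start. GENCODE M21, of the same build, begins Csn1s2a further on, and from its first start there the match lies at −97 to −89. From the first GENCODE start of Csn2 the match lies after the start, at 113 to 121. Another GENCODE start of Csn2 puts it at −93 to −85. For Csn1s1 the first GENCODE start gives −100 to −92, as in RefSeq. The 250 bases before the start are shown for Csn2 and Csn1s1, which share the match, and for Wap, whose window had none, with the match in capitals.
Csn2, chr5:87699426-87699675, minus strand: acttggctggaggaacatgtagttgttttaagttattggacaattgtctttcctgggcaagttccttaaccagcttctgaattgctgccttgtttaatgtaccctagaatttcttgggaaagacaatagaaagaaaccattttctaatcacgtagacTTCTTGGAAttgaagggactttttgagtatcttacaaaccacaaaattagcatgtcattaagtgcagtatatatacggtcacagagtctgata
Csn1s1, chr5:87665958-87666207, plus strand: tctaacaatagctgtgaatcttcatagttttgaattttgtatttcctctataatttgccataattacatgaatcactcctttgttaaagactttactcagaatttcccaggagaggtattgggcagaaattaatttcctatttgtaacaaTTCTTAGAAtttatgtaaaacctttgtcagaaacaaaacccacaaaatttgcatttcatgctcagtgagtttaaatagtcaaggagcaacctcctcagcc
Wap, chr11:6638650-6638899, minus strand: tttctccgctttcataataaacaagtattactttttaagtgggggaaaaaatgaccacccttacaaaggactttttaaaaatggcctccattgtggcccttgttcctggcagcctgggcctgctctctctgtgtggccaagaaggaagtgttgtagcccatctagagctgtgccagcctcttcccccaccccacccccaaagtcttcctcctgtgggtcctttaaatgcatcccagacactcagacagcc

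A match is a run of letters and not a measured binding site, and windows without one say nothing of the factor. Among the other genes of the cluster region, 15 had a window and 2 of these held a match.

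The genes through which prolactin and other hormones act were present in both libraries. Of 15 listed genes, all with a mean of at least 1 CPM, 1 was higher and 2 were lower beyond 2-fold (14.5% and 10.9% of all genes with that minimum). Their median log2 ratio was −0.02, against −0.01 for all such genes. It was 0.27 with unscaled totals and 1.03 with RPKM read totals, the latter with 7 higher and 0 lower. The median of all such genes moved alike, to 0.27 and 0.99, so the list stayed close to it on each scaling. With RPKM read totals 7232 of all 16016 genes were higher. Prlr, the prolactin receptor gene, had 3276 reads or 21.4 CPM against 718 reads or 14.1 CPM. Its ratio of 1.52 (1.40 to 1.65) fell far short of that of Csn2. Stat5a had a ratio of 1.91 (1.86 to 1.95), Stat5b of 1.44 and Jak2 of 1.48. The insulin receptor gene Insr was 2.35-fold higher (2.26 to 2.43). MHC-II low cells had 2.82 times the level of the feedback inhibitor gene Socs3, 1182 against 419 CPM, and 3.26 times that of the receptor gene Erbb4.

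Of 11 transcription factor genes known from mammary epithelium, 3 were higher and 3 lower (14.5% and 10.9% of all genes with that minimum), and the median log2 ratio was 0.25. On RPKM read totals the counts were 6 higher and 0 lower and the median 1.26. Tbx3, which acts in early mammary development, had 4096 against 220 reads, a ratio of 6.18 (5.40 to 7.12). Foxa1, a partner of the estrogen receptor, was 3.95-fold higher and Tfap2c 2.68-fold. Id2, an inhibitor of helix-loop-helix factors, was 2.43-fold higher in the low library, Nfib 2.70-fold and Runx1 2.66-fold. Elf5, a factor of the milk-producing cells, was at 7.80 against 4.65 CPM, a ratio of 1.68 (1.46 to 1.94). Ehf had the most reads of this list and a ratio of 0.885.

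Other components of milk differed in both directions. Of 21 genes, 7 were higher and 4 lower (14.5% and 10.9% of all genes), with a median log2 ratio of 0.35. On RPKM read totals the counts were 12 higher and 2 lower and the median 1.45. Spp1, the secreted phosphoprotein osteopontin, had 16033 against 279 reads, a ratio of 19.1 (17.0 to 21.6). Muc1, a mucin of the milk fat globule, was 3.25-fold higher. The fatty acid transporter gene Cd36 was 9.89-fold higher in the low library. Wfdc18 and Lpo, the gene of lactoperoxidase, had the most reads, with ratios of 0.563 and 1.66. The milk fat droplet gene Btn1a1 had 308 against 120 reads and a ratio of 0.853 (0.688 to 1.06), and Xdh, which acts with it, was 2.35-fold higher in the low library.

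Of 5 genes of lactose synthesis, 0 were higher and 0 lower beyond 2-fold (14.5% and 10.9% of all genes), with a median log2 ratio of 0.03. With RPKM read totals 2 were higher and the median was 1.03. B4galt1, the galactosyltransferase that Lalba acts on, had 11566 reads or 75.7 CPM against 3759 reads or 74.0 CPM, a ratio of 1.02 (0.985 to 1.06). The glucose transporter gene Slc2a1 had a ratio of 0.791, Ugp2 of 0.771 and the UDP-galactose carrier gene Slc35a2 of 1.27. Fam20c, the Golgi kinase that phosphorylates caseins, had a ratio of 1.21 (1.17 to 1.26), and its activator gene Fam20a was 2.58-fold higher in the low library. Of these 2 genes, 0 were higher and 1 was lower (14.5% and 10.9% of all genes). With unscaled read totals 0 of them were lower, where 1282 of all 17444 genes were. With RPKM read totals the ratios given here as below 1 for Ehf, Wfdc18, Btn1a1, Slc2a1, Ugp2, Prr27, Cabs1 and Enam turn above 1.

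**Figure D4:**
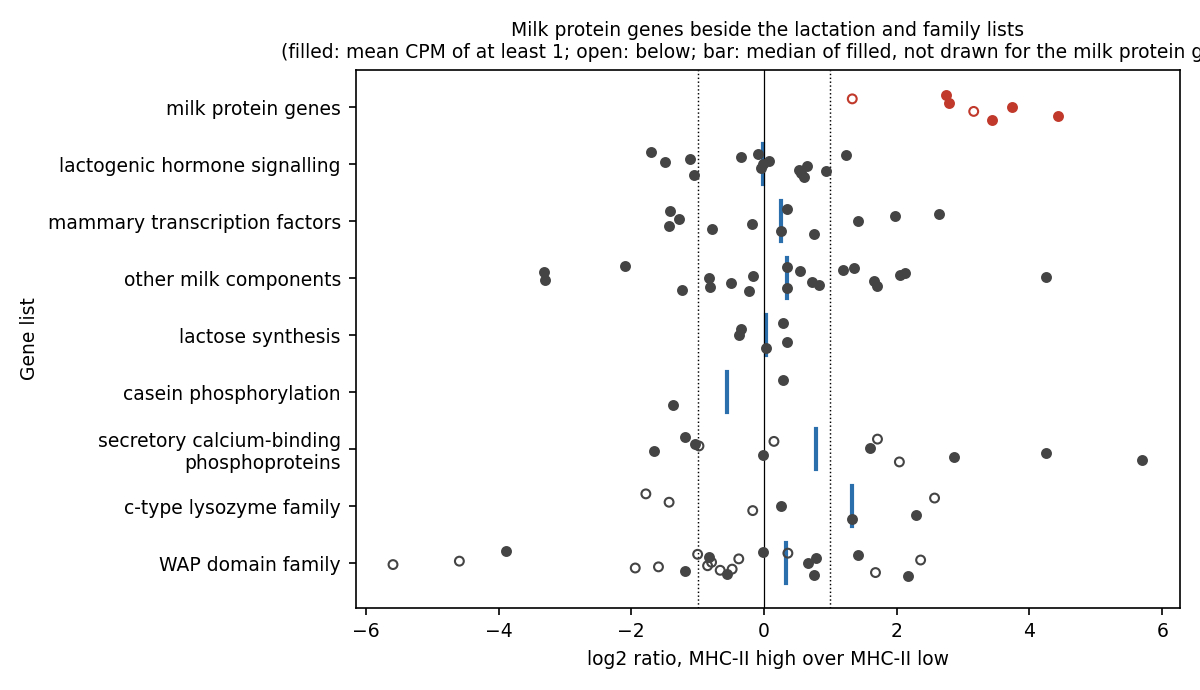
Log2 ratio of MHC-II high over MHC-II low for each gene of the milk protein set (red) and of the lactation and family lists (grey); filled points have a mean of at least 1 CPM, open points less, the blue bar is the median of the filled points and dotted lines mark 2-fold. The lists of hormone signalling, mammary factors and lactose synthesis have medians of −0.02, 0.25 and 0.03 on the scaling plotted, 0.27, 0.54 and 0.32 with unscaled totals and 1.03, 1.26 and 1.03 with RPKM read totals. The median of all genes with that minimum is −0.01, 0.27 and 0.99 on the same scalings, in that order.

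Caseins belong to the secretory calcium-binding phosphoproteins, a family that also makes enamel and bone proteins. Of 12 other listed members in the tables, 6 were higher and 1 lower with no expression minimum (12.4% and 16.7% of all genes with a read), with a median log2 ratio of 0.87. The median over those with a mean of at least 1 CPM was 0.79 (8 genes), 1.88 with unscaled totals (9 genes) and 3.93 with RPKM read totals (4 genes), and Amtn and Ambn passed that minimum only through the high library. Amtn, an enamel organ gene beyond the casein cluster on the same chromosome, had 1563 against 10 reads, a ratio of 51.9 (28.2 to 108). The enamel matrix gene Ambn, picked after its value was seen, was 7.31-fold higher, while Enam had a ratio of 0.986 (0.833 to 1.17). Lalba is related to the c-type lysozymes, of which 3 of 7 listed genes were higher and 0 lower with no minimum (12.4% and 16.7% of all genes with a read). Their median log2 ratio was 0.26, and 1.33 over the 3 with a mean of at least 1 CPM. Lyz2 was 4.89-fold and Lyz1 2.51-fold higher. These 2 genes are near-identical copies, and Lyz2 is also expressed by macrophages, so their reads are uncertain.

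Wap gives its name to a domain shared by small protease inhibitors. Of 23 such genes, 3 were higher and 4 lower with no minimum (12.4% and 16.7% of all genes with a read), with a median log2 ratio of −0.56. Of the 10 with a mean of at least 1 CPM, 2 were higher and 1 lower (14.5% and 10.9% of all such genes), with a median of 0.33. Slpi, an inhibitor of leukocyte elastase, was at 27.4 against 6.07 CPM, a ratio of 4.51. Wfikkn2, which binds growth factors of the TGF-beta family, was at 74.2 against 1095.5 CPM, and MHC-II low cells had 14.8 times the level (14.5 to 15.1).

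Genes with the most similar pair of levels were found by the distance between log2 CPM values of the 2 libraries, with no further sample to compare. Nearest to Csn2 were Sspo at 0.21, H2-Eb2 at 0.28, Hdc at 0.39, Sirt1 at 0.47 and Plagl1 at 0.64. Sspo encodes a secreted protein of the brain ventricles, Hdc the enzyme that makes histamine and Sirt1 the deacetylase of the series title. Sspo was at 791 against 69.3 CPM and Sirt1 at 845 against 82.5 CPM. Nearest to Csn1s1 were the vasopressin gene Avp at 0.09, Pramel51 and the pancreatic phospholipase gene Pla2g1b. Csn1s2a was closest to the cytokine gene Il27 at 0.05, Efcab3 and the collagenase gene Mmp13. For Csn3 they were Fcna, Spx and Pif1, and for Wap the serotonin receptor gene Htr2c, Il17b and Ceacam12.

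Markers of other cells also differed between the libraries, and their part in the results above was not tested. In these bulk samples, fewer cells of a type and less RNA per cell cannot be told apart. Counts here are over genes with a mean of at least 1 CPM, of which 14.5% were higher and 10.9% lower. Of 7 mature mTEC genes, 6 were higher in the high library, with summed levels of 15113 against 6917 CPM. Most of these sums came from Cd74 (9289 against 4453.5 CPM) and H2-Aa (4485 against 2240.2 CPM), genes of the MHC class II pathway by which the cells were sorted. Of the others, Cd80 was at 133 against 13.4 CPM and Cd86 at 31.7 against 2.64 CPM. Dendritic cell and macrophage genes were higher there in 4 of 6 cases, at 68.7 against 28.5 CPM in sum, and B cell genes in 2 of 3, at 9.55 against 3.58 CPM. The B cell gene Ms4a1 (3.81 against 0.552 CPM) reached that minimum through the high library alone. Genes of immature mTEC were lower in 5 of 5 cases, of endothelium in 8 of 8, of fibroblasts in 5 of 7 and of erythroid cells in 2 of 3. With RPKM read totals these were 4, 6, 5 and 2 genes, where 471 of all 16016 genes were lower. The last 3 summed to 488, 1088 and 2141 CPM in the low library against 72.0, 190.4 and 60.3 in the high one. Of 6 T cell genes, 1 was higher and 1 lower, and the T cell list summed to 41.8 against 61.7 CPM. Unlike the counts, the summed levels of the lists are over all their genes that were found, with no minimum. None of these marker genes was at 0 reads in both libraries.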

How the data were processed

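CASAVA, Bowtie 1.0.0, bedtools and the build mm9 stand in the submitters' processing notes. Their settings and the annotation: not given in the sources used here. As the series' design text states, about 100 ng of RNA per library was amplified with 15 PCR cycles and read as 2 ends of 100 bases. Per the file headers, each RefSeq transcript has its length, the RPKM the authors computed and the deposited read count. The deposited RPKM values were 505.5 and 19.1 for Csn2, a 26.5-fold ratio. Worked back from counts and lengths, they rest on other read totals, 213854095 (MHC-II high) and 142330178 (low), which raise every log2 ratio by 1.00.

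Lines that were not transcripts (18 and 36) were left out. Repeated lines of an accession (839 in the high table, 0 in the low) were summed, and the 29800 accessions with the same length in both tables were kept, which left out 33 of unequal length and 63 and 24 listed only for MHC-II high or low. Symbols came from RefSeq GRCm38.p6 (29233) and GENCODE M21 (173), and 394 had none. For each gene the transcript with most reads was taken. CPM used totals scaled by TMM in edgeR 4.0.16 (R 4.3.3), 152834158 and 50769789, with factors from genes of at least 1 CPM. The ratio has an exact 95% Clopper-Pearson interval (scipy 1.17.1), and a gene was called when its whole interval lay beyond 2-fold. The intervals treat every read as independent and cover no error other than counting. PCR reads without molecular identifiers are not independent, so the intervals may be too narrow even for counting error. A library at 0 reads was set to 3 reads, which is 0.0196 (MHC-II high) or 0.0591 CPM (low). With the larger value for the low library, a gene with few reads in the high library alone can get a log2 ratio below 0. The calls were tested on simulated data drawn as independent Poisson counts. Such draws hold no PCR copies and no spread between sorts, so that test does not cover either.

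Named genes were the members, the genes between and within 5 of the caseins, up to 4 per list (2 by reads, 2 by size of the ratio) and the nearest genes in level (5 for Csn2, 3 for others with at least 10 reads in each library). Other list genes given in the text, such as Prlr, Elf5, B4galt1 and Btn1a1, were added for their role after values were seen. Members, lists and rules were chosen with earlier results of these data known. Alternatives were DESeq2 1.42.0 size factors, other totals, transcripts, minimums and folds.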

Additional observations from a re-analysis of the deposited data

How the results depend on the processing

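Each of the 7 ratios stayed above 1 under all 9 alternatives for scaling, transcript choice, missing lines and fold. In 62 of these 63 values the call did not change; with the RPKM read totals Lalba rose to 5.04 (2.28 to 13.1) and passed 2-fold. Each of the 7 genes had 1 listed transcript, so transcript choice and missing lines could change only the library totals. The stricter fold leaves the ratio itself as it is. These settings therefore say little about how stable the ratios are. Csn2 ranged from 13.2 to 26.5 and Csn1s2a from 21.5 to 43.0. The split over all genes depends on scaling: 2530 were higher and 1907 lower (57.0% of calls higher), 3453 and 1282 with unscaled totals (72.9%, a shift of 0.29), and 7232 and 471 with RPKM totals (93.9%). It was 1397 and 914 beyond 3-fold, 1652 and 1427 at a minimum of 5 CPM, and 2837 and 3822 with no minimum (42.6%). List medians that changed sign were hormone signalling at 0.27 (unscaled) and 1.03 (RPKM totals), casein phosphorylation at 0.46, all epithelium at 0.69 and T cells at 0.11 (RPKM totals), and WAP domain genes at −0.56 (no minimum). The median of all genes also changed sign, from −0.01 to 0.27 (unscaled) and 0.99 (RPKM totals). Counted per kilobase, shares of the milk protein reads in the high library were 96.0% for Csn2, 1.93% for Csn1s2a, 0.763% for Wap, 0.663% for Csn1s1, 0.485% for Csn3, 0.125% for Csn1s2b and 0.0642% for Lalba; in the low library Wap held 1.496% and Csn3 0.921%. TMM factors from all genes were an alternative chosen after seeing the data. No paired analysis was possible because each group had 1 library. With 4 to 42 reads outside Csn2 in the low library, depth limits the other ratios.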
